A study of Mus musculus with 8 samples.

Results

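The zinc transporters and metallothioneins of mpkCCD cells were followed after 24 h of exposure to tolvaptan, an antagonist of the vasopressin V2 receptor. Genes were taken by their official symbol: the Slc39 (ZIP) family, the Slc30 (ZnT) family, Slc11a1 and Slc11a2, the metallothioneins Mt1 to Mt4, and the zinc-sensing transcription factor Mtf1. These are 31 of the 55414 genes in the table, with 14 Slc39 genes, 10 Slc30 genes, 2 Slc11 genes, 4 metallothioneins and Mtf1. RNA-seq was done on 4 libraries of cells given 50 nM tolvaptan plus 0.1 nM dDAVP and on 4 libraries of cells given 0.1 nM dDAVP alone with the vehicle of tolvaptan. dDAVP is a V2 receptor-selective agonist of vasopressin, so every library carries the agonist and no library is without it. mpkCCD is a line from microdissected cortical collecting ducts of SV-PK/Tag transgenic mice, and the subclone used was chosen for its high aquaporin-2. According to the methods, cells were moved the day before an experiment into a minimal medium with dexamethasone, transferrin and selenite. The replicates are numbered, and nothing says that they were separate cultures, so every p-value is set against the spread of these libraries, which may be technical.

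Zinc is held in cells at a very low free level by transport and by binding. ZIP proteins move zinc into the cytosol from outside the cell or out of organelles, and ZnT proteins move it the other way. Metallothioneins are small cysteine-rich proteins that bind zinc, copper and cadmium in the cytosol. When free zinc rises, MTF-1 binds metal response elements and switches on Mt1, Mt2 and the exporter gene Slc30a1. Mt1 and Mt2 also respond to glucocorticoids and to oxidative stress, and the kidney is a main site where they bind cadmium.

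Levels are given in TPM, a relative transcript abundance scaled by transcript length and library total, and fold changes as log2(TPM + 1) with tolvaptan plus dDAVP over dDAVP alone. Means are given ± SD over the 4 libraries of a group (n = 4 each). A gene was tested when its highest TPM was over 10, and 20 of the 31 passed this filter, with 10 Slc39 genes, 6 Slc30 genes, Mt1, Mt2, Slc11a2 and Mtf1. At an adjusted p under 0.05 from limma, 4 were lower with tolvaptan (Mt1, Mt2, Slc39a14 and Slc39a4) and 3 were higher (Slc39a13, Slc39a10 and Slc39a6). The other 13 did not pass. Slc39a4 was over 10 TPM only in dDAVP alone libraries, so its place among the 4 depends on that group. Among all 9943 genes tested, 16.1% passed in either direction, 6.10% lower and 10% higher, beside 4 of 20 and 3 of 20 zinc genes. Groups did not overlap for 8 of the 20 (the 7 that passed and Slc30a5), against 23.1% of all genes tested. The median log2 fold change of the 20 was -0.02, and that of all genes tested was 0.05, with 95% of the genes between -0.51 and 0.52. Scaling each library to a common median moved the split of all calls to 825 lower and 576 higher, and quantile normalization to 680 lower and 612 higher, against 607 lower and 994 higher as reported.

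**Figure D1:**
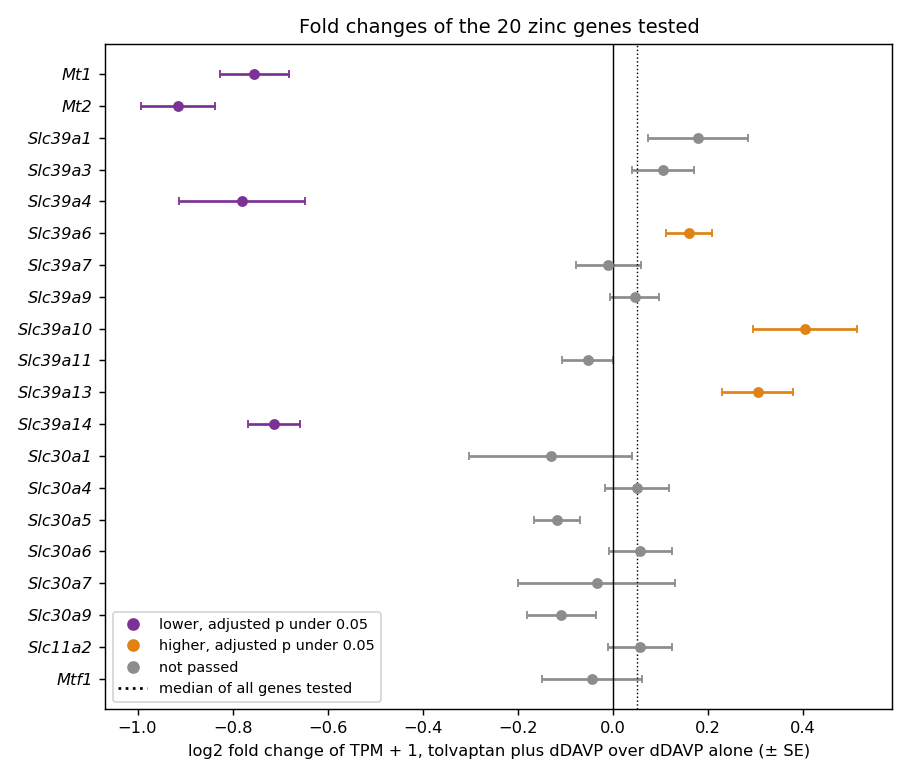
Log2 fold change of TPM + 1 (horizontal axis, tolvaptan plus dDAVP over dDAVP alone) for the 20 zinc genes tested, with bars of ± SE and a dotted line at the median of all genes tested. Mt1, Mt2, Slc39a4 and Slc39a14 lie between -0.91 and -0.71, apart from the other 16, which lie between -0.13 and 0.40.

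Mt1 and Mt2, the metallothionein genes that most cells express, were both lower with tolvaptan. Mt1 had 1315, 1212, 1041 and 1312 TPM in cells given tolvaptan plus dDAVP, against 2005, 1993, 2006 and 2204 TPM in cells given dDAVP alone. No tolvaptan library came near the lowest dDAVP library. Mean Mt1 was 1220 ± 129 TPM with tolvaptan plus dDAVP and 2052 ± 101 TPM with dDAVP alone, and it fell by 40.5% (log2 fold change -0.75, SE 0.07, limma adjusted p = 8.63e-05). Mt1 ranked 31st to 58th in level among the genes of the tolvaptan libraries and 12th to 14th in the dDAVP libraries. Mt2 had 188, 180.2, 148 and 189 TPM with tolvaptan plus dDAVP, against 327, 309, 342 and 350.4 TPM with dDAVP alone. The third tolvaptan library was the lowest for both genes. Mt2 averaged 176 ± 19.2 TPM with tolvaptan plus dDAVP and 332 ± 18.2 TPM with dDAVP alone, and it fell by 46.9% (log2 fold change -0.91, SE 0.08, limma adjusted p = 4.07e-05). Ordered by fold change from the most negative, Mt2 was 114th and Mt1 156th of 9943 genes. Leaving out any 1 library kept Mt1 between -0.79 and -0.68 and Mt2 between -0.95 and -0.83.

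The ratio of Mt2 to Mt1 was lower with tolvaptan. Mt2 amounted to 0.145 ± 0.00286 of Mt1 with tolvaptan plus dDAVP (0.142 to 0.149) and to 0.162 ± 0.00661 with dDAVP alone (0.155 to 0.171). The difference in log2(Mt2/Mt1) was -0.16, and the groups did not overlap (exact permutation test, 2-sided, p = 0.0286, the smallest that 4 against 4 libraries can give). Mt1 and Mt2 are similar in sequence, so reads could be split wrongly between them. The longest identical run between any of 3 Mt1 and 2 Mt2 transcripts in GENCODE M21 was 20 bases, which is shorter than the 50-base reads. Whether reads were split wrongly was not tested. Both metallothionein genes together gave nearly all of the summed level of the family, 1397 ± 147 TPM with tolvaptan plus dDAVP and 2384 ± 115 TPM with dDAVP alone. Mt3, known as the metallothionein of the brain, reached at most 0.23 TPM and Mt4, known from stratified epithelia, at most 1.04 TPM in any library. The libraries are of whole cultures, in which fewer cells of a type and less RNA per cell cannot be told apart.

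Mouse Mt1 and Mt2 lie side by side on chromosome 8, and their windows around the transcription start are shown because both genes fell and both are known MTF-1 targets. Each window runs from 250 bases before to 50 bases after the RefSeq start in GRCm38.p6. Slc30a1 is set beside them as the MTF-1 target among the zinc exporters, which did not pass the test. The Mt2 window is chr8:94172368-94172667 (plus strand), the Mt1 window chr8:94178839-94179138 (plus strand) and the Slc30a1 window chr1:191906531-191906830 (plus strand). Capitals mark the core of the metal response element, TGCACNC or TGCGCNC, read on both strands.
Mt2: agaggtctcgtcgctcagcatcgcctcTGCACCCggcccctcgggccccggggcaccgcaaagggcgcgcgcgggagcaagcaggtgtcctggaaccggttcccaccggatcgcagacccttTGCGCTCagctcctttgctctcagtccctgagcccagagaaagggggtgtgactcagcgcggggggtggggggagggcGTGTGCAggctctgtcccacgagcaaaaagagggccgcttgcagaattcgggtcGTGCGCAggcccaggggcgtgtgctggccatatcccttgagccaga
Mt1: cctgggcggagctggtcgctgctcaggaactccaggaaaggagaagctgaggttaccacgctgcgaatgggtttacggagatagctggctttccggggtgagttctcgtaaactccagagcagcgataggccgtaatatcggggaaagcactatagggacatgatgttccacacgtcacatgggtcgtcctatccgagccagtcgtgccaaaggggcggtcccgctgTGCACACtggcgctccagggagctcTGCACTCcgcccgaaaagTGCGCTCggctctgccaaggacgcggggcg
Slc30a1: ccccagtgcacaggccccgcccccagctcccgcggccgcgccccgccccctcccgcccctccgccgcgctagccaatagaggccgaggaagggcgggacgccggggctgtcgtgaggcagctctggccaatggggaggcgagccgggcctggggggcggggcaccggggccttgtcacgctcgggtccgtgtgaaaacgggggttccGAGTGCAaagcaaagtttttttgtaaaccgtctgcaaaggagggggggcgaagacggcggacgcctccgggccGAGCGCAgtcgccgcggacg

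The Mt2 window holds 4 such cores, the Mt1 window 3 and the Slc30a1 window 2. Of all 32851 RefSeq windows of this length, 25.7% hold at least 1 core, 7.11% at least 2, 1.97% at least 3 and 0.517% at least 4. The RefSeq windows cover 26 of the 31 zinc genes, all but Slc30a8, Slc39a4, Slc39a6, Slc39a14 and Slc11a2, and 15 of the 26 have a core in at least 1 window. This counts genes, some with more than 1 window, while the shares of all windows count windows. The cores were not confined to genes that fell: Slc30a4, which did not pass, has 3, Slc39a13, which was higher, has 1, and both windows of Slc39a10 have 0. The complete cAMP response element TGACGTCA, found in 1.79% of all windows, occurs in neither metallothionein window. Its first 5 bases, TGACG, on either strand, were found in 20.8% of all windows and occur once in the Mt1 window. TGACNNNGC, the letters of the antioxidant response element, was found in 12.4% of all windows and occurs once each in the Mt2 and Slc30a1 windows. TGACG is part of the complete cAMP response element and can overlap the antioxidant letters. These are matches of letters only, and they hold for these windows, because sequence beyond the windows was not read.

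The protein-coding genes beside the metallothioneins were read for comparison. Nup93, next after Mt1 and a gene of the nuclear pore, averaged 134 ± 7.17 TPM with tolvaptan plus dDAVP and 133 ± 1.83 TPM with dDAVP alone (log2 fold change 0.01, limma adjusted p = 0.922). On the other side, Bbs2, Ogfod1 and Nudt21 had log2 fold changes of 0.09, 0.02 and 0.14, and none passed. Herpud1, which lies farther along and serves degradation at the endoplasmic reticulum, averaged 257 ± 15.1 TPM with tolvaptan plus dDAVP and 306 ± 4.08 TPM with dDAVP alone. It passed as lower (log2 fold change -0.25, limma adjusted p = 0.00503).

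**Figure D2:**
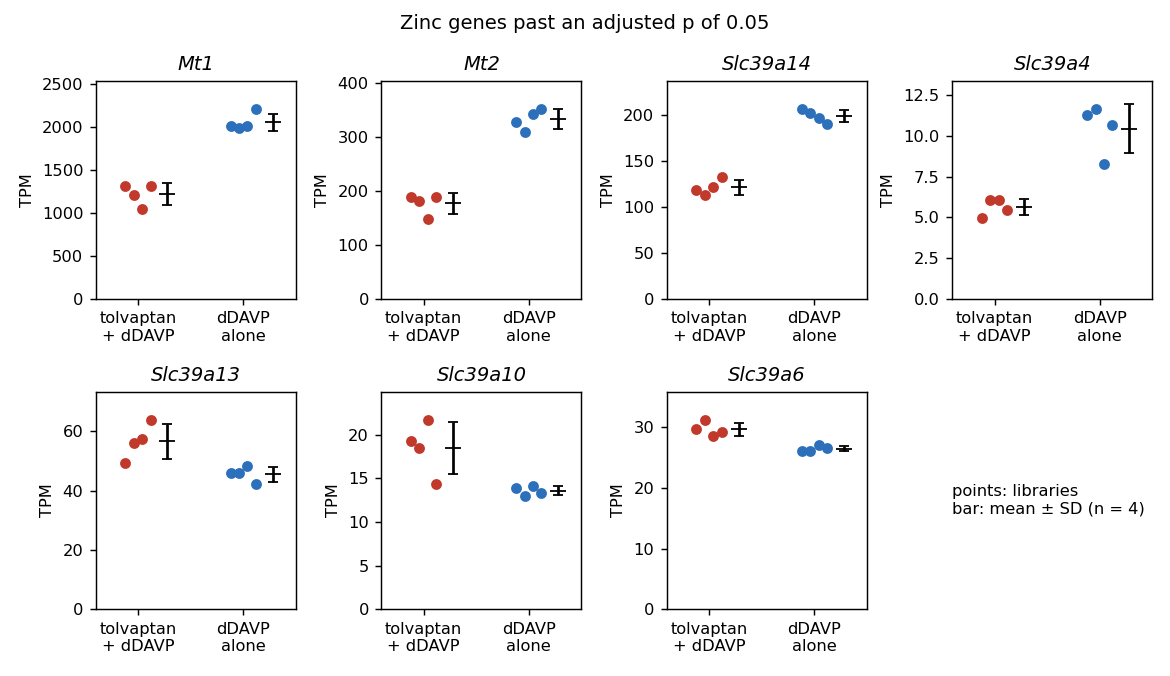
TPM (vertical axes, from 0) of the 7 zinc genes past an adjusted p of 0.05 in each of the 4 tolvaptan plus dDAVP libraries (red) and the 4 dDAVP alone libraries (blue), with the mean and SD beside the points. For all 7 genes the groups do not overlap, and the gap is narrowest for Slc39a10, where 1 tolvaptan library at 14.4 TPM lies just above the highest dDAVP library at 14.1 TPM.

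Among the importers, Slc39a14 and Slc39a4 fell. Slc39a14 encodes ZIP14, which carries zinc, non-transferrin iron, manganese and cadmium across the plasma membrane. It had 118, 113, 121 and 133 TPM with tolvaptan plus dDAVP, against 206, 202, 197 and 191 TPM with dDAVP alone. These ranges lie far apart, and the means were 121 ± 8.40 TPM with tolvaptan plus dDAVP and 199 ± 6.62 TPM with dDAVP alone. Slc39a14 fell by 39.1% (log2 fold change -0.71, SE 0.05, limma adjusted p = 1.80e-05), and its fold change stayed between -0.76 and -0.68 with any 1 library left out. Its size was close to that of Mt1, and it was 167th of 9943 genes from the most negative fold change.

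Slc39a4 encodes ZIP4, the importer of dietary zinc whose loss causes acrodermatitis enteropathica in humans. It had 4.99, 6.04, 6.07 and 5.46 TPM with tolvaptan plus dDAVP, against 11.3, 11.6, 8.27 and 10.7 TPM with dDAVP alone. The third dDAVP library was nearest to the tolvaptan libraries, and the groups did not overlap. Slc39a4 averaged 5.64 ± 0.516 TPM with tolvaptan plus dDAVP and 10.5 ± 1.51 TPM with dDAVP alone (log2 fold change -0.78, SE 0.13, limma adjusted p = 0.00348). Its levels were over 10 TPM in 3 dDAVP libraries and 0 tolvaptan libraries, so it was tested only because it was high in the dDAVP group. At this level its size moved with the processing: the log2 fold change was -0.87 with a pseudocount of 0.1 TPM, -0.53 with 5 TPM and -1.51 after quantile normalization.

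The 3 importers that rose did so by less, and none of these calls held in every setting. Slc39a13 encodes ZIP13, which releases zinc from Golgi vesicles, and had 49.5, 56.1, 57.5 and 63.8 TPM with tolvaptan plus dDAVP, against 46.1, 45.8, 48.3 and 42.2 TPM with dDAVP alone. Its lowest tolvaptan library stood just above its highest dDAVP library. The means were 56.7 ± 5.87 TPM with tolvaptan plus dDAVP and 45.6 ± 2.53 TPM with dDAVP alone (log2 fold change 0.30, SE 0.07, limma adjusted p = 0.0229). Slc39a10 encodes ZIP10, a plasma membrane importer whose gene is repressed by MTF-1 in mouse cells. It had 19.3, 18.5, 21.7 and 14.4 TPM with tolvaptan plus dDAVP, against 13.9, 12.9, 14.1 and 13.4 TPM with dDAVP alone. The fourth tolvaptan library lay close to the dDAVP libraries and the other 3 clearly above them. Slc39a10 averaged 18.5 ± 3.02 TPM with tolvaptan plus dDAVP and 13.6 ± 0.539 TPM with dDAVP alone (log2 fold change 0.40, SE 0.11, limma adjusted p = 0.0324). Slc39a6 encodes ZIP6, the partner of ZIP10 in a heteromer, and had 29.7, 31.1, 28.6 and 29.1 TPM with tolvaptan plus dDAVP, against 26.1, 26.1, 27.0 and 26.5 TPM with dDAVP alone. Its mean was 29.6 ± 1.09 TPM with tolvaptan plus dDAVP and 26.4 ± 0.415 TPM with dDAVP alone (log2 fold change 0.16, SE 0.05, limma adjusted p = 0.0479).

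With 1 library left out in turn, Slc39a13 missed an adjusted p of 0.05 in 5 of 8 fits (0.0105 to 0.0849, limma), and Slc39a10 and Slc39a6 in 7 of 8 each (0.00224 to 0.0981 and 0.0286 to 0.102). The 3 missed together without tolvaptan replicate 2 or 3 or without dDAVP replicate 1, 2 or 4. Scaling to a common median or quantile normalization left only Slc39a13 past the threshold. Mt1, Mt2, Slc39a14 and Slc39a4 passed in all 17 other fits.

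**Figure D3:**
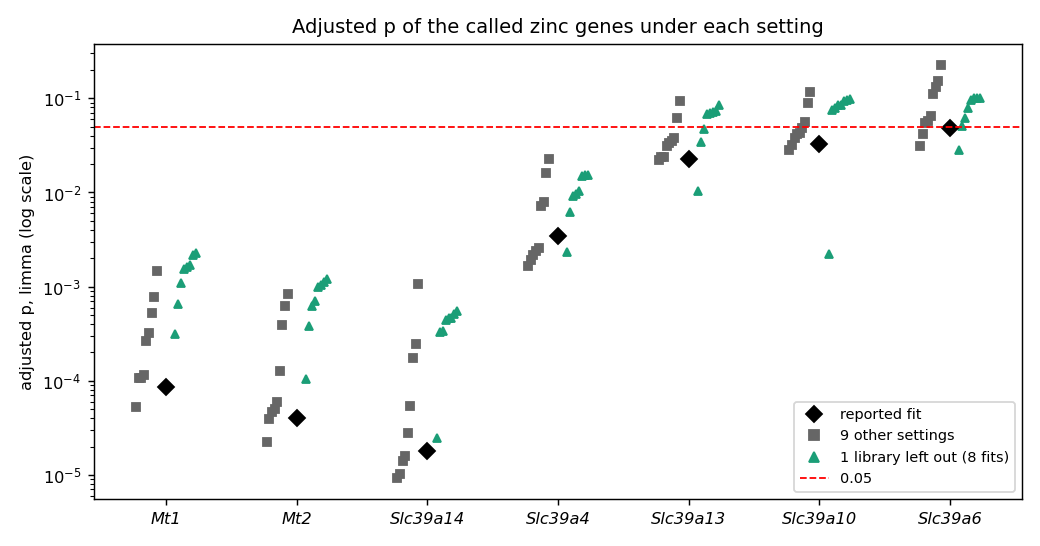
Adjusted p from limma (vertical axis, log scale) of the 7 called zinc genes in the reported fit (diamonds), 9 other settings (squares) and 8 fits with 1 library left out (triangles), with a dashed line at 0.05. All points of Mt1, Mt2, Slc39a14 and Slc39a4 lie below the line, with the highest leave-one-out value at 0.0153 for Slc39a4, while those of Slc39a13, Slc39a10 and Slc39a6 lie on both sides of it.

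The other 5 importers tested did not pass. Slc39a7, which encodes ZIP7 and releases zinc from the endoplasmic reticulum, had 155, 170.2, 183 and 196 TPM with tolvaptan plus dDAVP, against 180.4, 183, 177 and 167 TPM with dDAVP alone. The tolvaptan libraries spread more widely and covered the whole dDAVP range (log2 fold change -0.01, SE 0.07, limma adjusted p = 0.941). Slc39a9, which encodes the Golgi transporter ZIP9, had 101, 108, 111 and 98.3 TPM with tolvaptan plus dDAVP, against 101, 105, 103 and 96.8 TPM with dDAVP alone (log2 fold change 0.05, limma adjusted p = 0.580). Slc39a3 averaged 39.5 TPM with tolvaptan plus dDAVP and 36.6 TPM with dDAVP alone, and Slc39a11 29.5 TPM and 30.7 TPM in the same order. Slc39a1 averaged 9.86 ± 0.944 TPM with tolvaptan plus dDAVP and 8.59 ± 0.714 TPM with dDAVP alone. It entered the test through 1 tolvaptan library over 10 TPM.

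The most abundant importer differed between the groups. With tolvaptan plus dDAVP, Slc39a7 led in every library (155 to 196 TPM) and Slc39a14 came next (113 to 133 TPM), above Slc39a9 (98.3 to 111 TPM). With dDAVP alone, Slc39a14 led (191 to 206 TPM), Slc39a7 came next (167 to 183 TPM), and Slc39a9 was again below them (96.8 to 105 TPM). The ranges of these 3 genes did not overlap within either group. The ratio of Slc39a14 to Slc39a7 was 0.691 ± 0.0488 (0.662 to 0.764) with tolvaptan plus dDAVP and 1.13 ± 0.0194 (1.11 to 1.14) with dDAVP alone. Slc39a14 made up 20.4% ± 1.00 of the summed TPM of all 14 importers with tolvaptan plus dDAVP and 30.6% ± 0.428 with dDAVP alone. The sum over the family was 593 ± 29.3 TPM with tolvaptan plus dDAVP and 651 ± 18.8 TPM with dDAVP alone, and without Slc39a14 it was 472 ± 24.05 TPM and 452 ± 13.1 TPM in the same order.

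**Figure D4:**
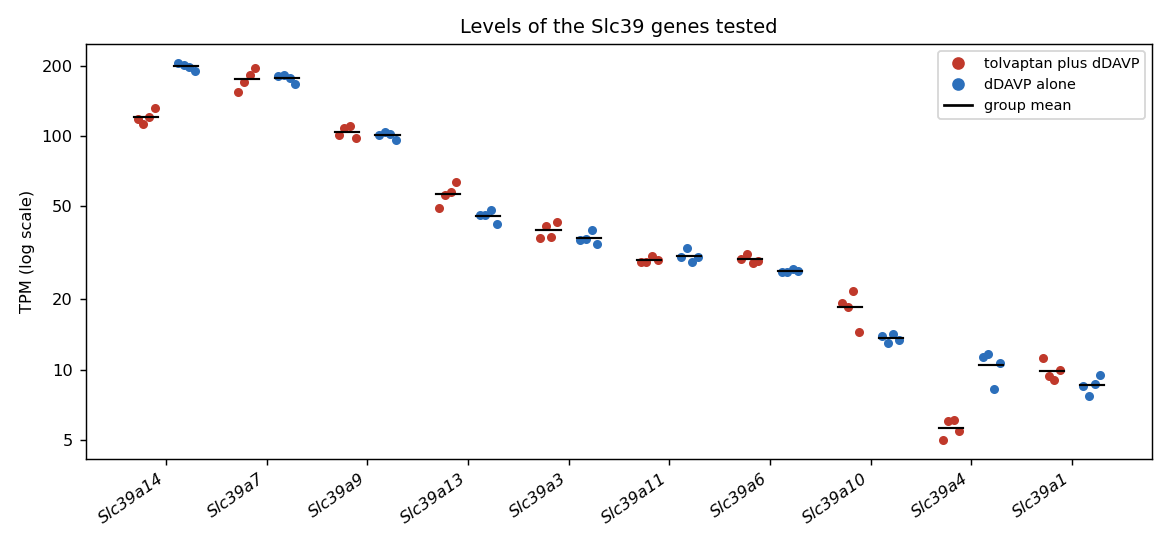
TPM (vertical axis, log scale) of the 10 Slc39 genes tested in the 4 tolvaptan plus dDAVP libraries (red, left) and the 4 dDAVP alone libraries (blue, right), with black lines at the group means. Slc39a14 drops below Slc39a7 in the tolvaptan libraries, and Slc39a4, near the low end, has 4.99 to 6.07 TPM with tolvaptan plus dDAVP and 8.27 to 11.6 TPM with dDAVP alone.

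None of the 6 zinc exporters tested passed in the reported fit or in any of 17 other fits. Their log2 fold changes lay between -0.13 and 0.06, and 1 of the 6, Slc30a5, had an unadjusted p under 0.05. Slc30a5 encodes ZnT5, which pairs with ZnT6 to load zinc into enzymes of the early secretory pathway. It had 62.1, 62.1, 62.1 and 55.3 TPM with tolvaptan plus dDAVP, against 65.8, 66.3, 65.2 and 64.9 TPM with dDAVP alone. All tolvaptan libraries were below all dDAVP libraries, by a small margin (log2 fold change -0.12, SE 0.05, limma adjusted p = 0.133). Its partner Slc30a6 had 61.8, 62.6, 64.5 and 54.3 TPM with tolvaptan plus dDAVP, against 53.1, 59.4, 61.4 and 59.5 TPM with dDAVP alone (log2 fold change 0.06, limma adjusted p = 0.589). Slc30a9, which encodes the mitochondrial zinc exporter ZnT9, had 88.5, 92.0, 92.2 and 73.5 TPM with tolvaptan plus dDAVP, against 87.8, 95.2, 92.5 and 96.7 TPM with dDAVP alone. The fourth tolvaptan library was low and the other 3 lay within the dDAVP range (log2 fold change -0.11, limma adjusted p = 0.343).

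Slc30a7, whose product works as a homodimer in the early secretory pathway, ranged from 33.6 to 53.8 TPM with tolvaptan plus dDAVP and from 30.0 to 46.5 TPM with dDAVP alone. Replicate 4 stood apart in both groups, as the highest with tolvaptan plus dDAVP and the lowest with dDAVP alone. Slc30a4, an endosomal exporter, averaged 19.5 TPM with tolvaptan plus dDAVP and 18.8 TPM with dDAVP alone. Slc30a1, the plasma membrane exporter, averaged 8.20 ± 2.16 TPM with tolvaptan plus dDAVP and 8.90 ± 0.980 TPM with dDAVP alone (log2 fold change -0.13, SE 0.17, limma adjusted p = 0.634). It was over 10 TPM in 1 tolvaptan library only, and its SE was the widest among the zinc genes tested. The sum over the ZnT family was 275 ± 7.17 TPM with tolvaptan plus dDAVP and 285 ± 6.80 TPM with dDAVP alone.

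Slc11a2, which encodes the proton-coupled iron and divalent metal importer DMT1, averaged 30.3 ± 2.23 TPM with tolvaptan plus dDAVP and 29.1 ± 1.90 TPM with dDAVP alone (log2 fold change 0.06, limma adjusted p = 0.604). Mtf1 had 20.3, 18.2, 19.9 and 18.4 TPM with tolvaptan plus dDAVP, against 17.4, 20.1, 24.9 and 17.6 TPM with dDAVP alone (log2 fold change -0.04, SE 0.11, limma adjusted p = 0.808). The dDAVP libraries were more widely spread and covered all tolvaptan libraries. The mRNA level says nothing of the activity of MTF-1, which zinc sets on the protein.

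The remaining 11 genes stayed under the filter, with no value above 2.31 TPM. The highest was Slc39a8, which encodes ZIP8, the closest relative of ZIP14, with 1.79 ± 0.327 TPM with tolvaptan plus dDAVP and 2.14 ± 0.117 TPM with dDAVP alone. The importers Slc39a2, Slc39a5 and Slc39a12 reached at most 0.25, 0.44 and 0.14 TPM, and Slc39a12 was listed at 0 in all tolvaptan libraries. Of the exporters, Slc30a3 of synaptic vesicles reached 0.66 TPM, Slc30a2 of the mammary gland 0.11 TPM, and Slc30a8 of insulin granules and the manganese exporter Slc30a10 0.05 TPM each. Slc11a1, the metal transporter of macrophage phagosomes, reached 0.70 TPM, and Mt3 and Mt4 are given above. With all 39780 genes above 0 tested by limma, 0 of these 11 passed an adjusted p of 0.05 and 0 had an unadjusted p under 0.05. An exact permutation test gave 0 as well.

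Genes of neighbouring metal pathways were read from lists chosen by function, with earlier results of these data known. Of 11 copper genes 10 were tested, and 3 fell and 0 rose (at an unadjusted p under 0.05, 5 were lower and 0 higher). Of all 9943 genes tested, 6.10% passed as lower and 10% as higher. The share of all genes at an unadjusted p under 0.05 was not counted. The median log2 fold change of the list was -0.15, against 0.05 over all genes. Slc31a1, which encodes the copper importer CTR1, averaged 63.2 ± 5.36 TPM with tolvaptan plus dDAVP and 90.9 ± 2.93 TPM with dDAVP alone (log2 fold change -0.52, limma adjusted p = 0.000365). Its relative Slc31a2 averaged 138 ± 4.45 TPM with tolvaptan plus dDAVP and 188 ± 4.17 TPM with dDAVP alone (log2 fold change -0.44, limma adjusted p = 6.93e-05). Atp7a, which encodes the copper-exporting ATPase mutated in Menkes disease, averaged 43.0 ± 2.93 TPM with tolvaptan plus dDAVP and 57.5 ± 1.19 TPM with dDAVP alone (log2 fold change -0.41, limma adjusted p = 0.000731). All 3 passed with each library left out in turn. The copper chaperone genes Atox1 and Ccs and the copper-zinc superoxide dismutase gene Sod1 had log2 fold changes of 0.16, 0.02 and 0.09, and none passed. Commd1 had 0.05, while Sco2, Cox17 and Sco1 had -0.34, -0.17 and -0.12, and none of these passed either.

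Of 22 iron genes 17 were tested, and 5 fell and 0 rose (at an unadjusted p under 0.05, 6 were lower and 1 higher), with a median of -0.08. Over all 9943 genes tested, 6.10% passed as lower and 10% as higher, and the share at an unadjusted p was not counted. Flvcr1, described as a transporter gene for heme and choline, had a log2 fold change of -0.52 (limma adjusted p = 0.00483), with 11.3 ± 1.35 TPM in tolvaptan plus dDAVP and 16.6 ± 0.976 TPM in dDAVP alone. Fth1, the ferritin heavy chain, averaged 2224 ± 40.3 TPM with tolvaptan plus dDAVP and 2500 ± 54.4 TPM with dDAVP alone (log2 fold change -0.17, limma adjusted p = 0.00503), and missed the threshold after quantile normalization. The metalloreductase gene Steap1 averaged 77.6 ± 3.67 TPM with tolvaptan plus dDAVP and 92.8 ± 3.87 TPM with dDAVP alone (log2 fold change -0.25, limma adjusted p = 0.00768). Its relative Steap2 averaged 82.9 ± 2.44 TPM with tolvaptan plus dDAVP and 92.4 ± 1.75 TPM with dDAVP alone (log2 fold change -0.16, limma adjusted p = 0.0299), and missed the threshold in 4 of 8 fits with 1 library left out. The fifth was Slc48a1, a heme transporter gene named after its values were seen, which missed it in 7 of 8. Slc40a1, which encodes the iron exporter ferroportin, and Tfrc, the transferrin receptor, had log2 fold changes of 0.08 and 0.10 and did not pass.

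Of 9 genes listed as MTF-1 targets, all were tested, and 4 fell and 2 rose, with a median of -0.13. Among all genes tested, 6.10% passed as lower and 10% as higher. The list includes Mt1, Mt2, Slc30a1 and Slc39a10, and of its 5 genes outside the zinc families 2 fell and 1 rose. Ndrg1 averaged 294 ± 17.6 TPM with tolvaptan plus dDAVP and 470.1 ± 26.4 TPM with dDAVP alone (log2 fold change -0.68, limma adjusted p = 3.14e-05). Gclc, the catalytic subunit of the enzyme that starts glutathione synthesis, averaged 110.0 ± 6.72 TPM with tolvaptan plus dDAVP and 154 ± 6.05 TPM with dDAVP alone (log2 fold change -0.48, limma adjusted p = 0.000231). Both are known to respond to other signals too, Ndrg1 to hypoxia and Gclc to NRF2. The gene that rose was Csrp1, named after its values were seen, and it missed the threshold in 6 of 8 fits with 1 library left out. Slc40a1 and Selenow, a selenoprotein gene, did not pass (limma adjusted p = 0.244 and 0.984).

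Of 7 regulators of metallothionein genes 6 were tested. The glucocorticoid receptor gene Nr3c1 alone passed, with 38.7 ± 1.84 TPM with tolvaptan plus dDAVP and 33.9 ± 1.51 TPM with dDAVP alone (log2 fold change 0.18, limma adjusted p = 0.0427), and it missed the threshold in 6 of 8 fits with 1 library left out and in 6 of 9 other settings. Nfe2l2, which encodes NRF2, had a log2 fold change of -0.11 and did not pass (limma unadjusted p = 0.0210, adjusted p = 0.0926). Its groups did not overlap, with 240.5 to 259.9 TPM in tolvaptan plus dDAVP and 265.8 to 279.0 TPM in dDAVP alone. The same held for 23.1% of all genes tested. The median of the 6 was 0.04, and 16.1% of all genes tested passed in either direction. Of 8 genes of manganese and cadmium routes 5 were tested, with a median of 0.04, and Slc39a14 fell. Tmem165, a Golgi manganese transporter gene, averaged 184 ± 8.82 TPM with tolvaptan plus dDAVP and 163 ± 1.75 TPM with dDAVP alone (log2 fold change 0.18, limma adjusted p = 0.0239), and missed the threshold in 5 of 8 fits with 1 library left out. Of 5 other zinc genes (Trpm7, Mcoln1, Gpr39, Atp13a2 and Tmem163) 4 were tested, with a median of 0.12, and 0 passed by limma, while 1, Trpm7, had an unadjusted p under 0.05.

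All libraries sum to the same total TPM, so the read depth is unknown, and no 2 libraries were identical. The tolvaptan libraries had 9367 to 9422 genes over 10 TPM and the dDAVP libraries 9203 to 9274. Tolvaptan replicate 4 deviated most from its group (root mean square 0.334 on the log2 scale, against 0.251 to 0.294 for the others). Slc39a3, Slc39a10, Slc39a14, Slc30a4, Slc30a5, Slc30a6, Slc30a7, Slc30a9 and Slc11a2 were among the zinc genes whose value in that library lay farthest from the other 3. Markers of the principal cell, the cell type of the line, were present: 9 of 12 were over 10 TPM, with Aqp3, Scnn1b and Elf5 below it. Their sum was 5442 to 6671 TPM with tolvaptan plus dDAVP and 10160 to 10834 TPM with dDAVP alone. Of the 9, 5 fell and 2 rose, against 6.10% lower and 10% higher of all genes tested. Aqp2, the vasopressin-regulated water channel, averaged 272 ± 46.3 TPM with tolvaptan plus dDAVP and 3049.6 ± 164 TPM with dDAVP alone. Krt18 averaged 3517 ± 341 TPM and 5039 ± 93.6 TPM in the same order. The 2 that rose were Scnn1a and Scnn1g (log2 fold changes 0.62 and 0.42, limma adjusted p = 0.00238 and 0.00140). Of 5 intercalated cell markers 1, Atp6v1b1, was over 10 TPM (sums of 46.2 to 77.7 TPM with tolvaptan plus dDAVP and 42.7 to 71.8 TPM with dDAVP alone), and Foxi1, Slc4a1 and Slc26a4 were at 0.36 TPM or below in every library. Of 5 proximal tubule markers 1, Lrp2, was over 10 TPM, and in tolvaptan libraries only. It had 10.6 to 11.6 TPM with tolvaptan plus dDAVP and 7.80 to 8.43 TPM with dDAVP alone. Lrp2 was tested only because it was high in the tolvaptan group, where it was called higher (log2 fold change 0.41, limma adjusted p = 0.0108). The summed proximal tubule markers were 10.7 to 11.9 TPM with tolvaptan plus dDAVP and 8.09 to 8.77 TPM with dDAVP alone. Markers of thick ascending limb and distal tubule, fibroblasts, endothelium and leukocytes were all under 10 TPM. The part of these marker levels in the zinc gene results was not tested.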

How the data were processed

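cDNA libraries (SMARTer V4, Nextera XT, paired-end reads of 50 bases) of 4 tolvaptan plus dDAVP and 4 dDAVP alone samples were analysed. The authors used STAR to align the reads to Ensembl release 106 of the mouse and RSEM to make the deposited TPM values (tool versions not given in the sources used here). TPM hide the read depth, so precision rests on the 4 libraries per group, and the study's DESeq2 test, which needs counts, was not repeated. Genes over 10 TPM in any library (9943) were compared on log2(TPM + 1), which understates changes of low genes, with limma 3.58.1 in R 4.3.3 (trended variance, 2-sided, no block) and Benjamini-Hochberg adjustment over all 9943; the code was tested on simulated data. Single ratios had exact permutation tests (scipy 1.17.1). The zinc genes and lists were chosen with earlier results of these data known. Every zinc gene is named, with all 8 values for those that passed or were among the 8 most abundant; from each list, up to 4 genes that passed are named by smallest p, and other genes were added after their values were seen. Windows came from RefSeq (GRCm38.p6) and transcripts from GENCODE M21, neither of the authors' build. Alternatives were 2 pseudocounts, 2 filters, 2 scalings, 2 variance models, a replicate block and leaving out each library.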

Additional observations from a re-analysis of the deposited data

Results flagged for a closer look

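Each zinc gene tested was checked in each group for a library far from the other 3, which chance flags in about 1 in 20 groups, and 3 of 40 groups were flagged. Slc30a5 in tolvaptan plus dDAVP had 55.3 TPM in replicate 4, below 62.05 to 62.15 TPM in the other 3 libraries. Slc30a7 in tolvaptan plus dDAVP had 53.8 TPM in replicate 4, above 33.6 to 36.2 TPM in the others. Mt1 in dDAVP alone had 2204 TPM in replicate 4, above 1993 to 2006 TPM in the others. Without that library the log2 fold change of Mt1 was -0.72, against -0.75 as reported.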

How the results depend on the processing

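The 4 falls (Mt1, Mt2, Slc39a14 and Slc39a4) passed under all 9 other settings and all 8 fits with 1 library left out. Slc39a4 entered the reported fit only through its dDAVP alone libraries. The number of zinc genes that rose, 3 as reported, was 0 with no filter (39780 genes tested), 1 after scaling to a common median, 1 after quantile normalization, 1 with the replicate block, and 0 to 3 with 1 library left out (0 without tolvaptan replicate 2 or 3 or dDAVP replicate 1, 2 or 4, and 1 without tolvaptan replicate 1 or dDAVP replicate 3). No direction of a called gene reversed. The difference in log2(Mt2/Mt1) was -0.16 with the replicate block, with p = 0.125 by exact sign flips of 4 differences, the smallest they can give. It was -0.18 to -0.14 with 1 library left out, with p = 0.0571 by exact permutation, also the smallest possible. Over all genes, 422 fell and 498 rose with no filter, 396 and 515 with the replicate block, and 406 to 834 and 463 to 1403 with 1 library left out, against 607 and 994 as reported; higher calls exceeded lower ones as reported but not after scaling to a common median (825 fell and 576 rose) or quantile normalization (680 fell and 612 rose). Libraries of the same number share only a number: their deviations from the group means correlated at -0.07 to -0.00, and 0 of the tolvaptan libraries correlated best with their own number. TPM give no depth, so no counting error can be given, and changes of genes near or under 10 TPM, such as Slc39a4, depend in size on the pseudocount and the scaling.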

Other observations

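Atp2c2, which encodes a Golgi and secretory pathway pump for calcium and manganese, stayed just under the filter and was named after its values were seen. It had 3.93 to 5.09 TPM with tolvaptan plus dDAVP and 8.87 to 9.12 TPM with dDAVP alone, with means of 4.71 ± 0.547 TPM and 8.97 ± 0.113 TPM in the same order (± SD, n = 4 each). With every gene above 0 tested, it was lower with tolvaptan (log2 fold change -0.81, limma adjusted p = 0.00132). Its close relative Atp2c1 averaged 116 TPM with tolvaptan plus dDAVP and 120.2 TPM with dDAVP alone (log2 fold change -0.05, limma adjusted p = 0.454).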
